A study of Acomys cahirinus and Mus musculus with 6 samples.

Results

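ErbB receptors and their EGF-family ligands were followed through every annotated cell type of 6 single-cell libraries from healing ear punch wounds. The set was given by name and holds 10 of the 20381 genes in the count table. It has 3 receptors, Egfr, Erbb2 and Erbb3, and 7 ligands, Areg, Ereg, Hbegf, Btc, Epgn, Tgfa and Nrg1. Of these, 8 had UMIs (unique molecular identifiers, each standing for 1 captured transcript) in the spiny mouse, and all 10 had UMIs in the mouse.

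ErbB receptors are tyrosine kinases that pair up when a ligand binds and start, among others, the RAS to ERK cascade. EGFR binds the EGF-type ligands, ERBB2 has no known soluble ligand and works as a partner, and ERBB3, a weak kinase, binds neuregulins and signals mainly in pairs with ERBB2. The ligands are made as membrane precursors that ADAM proteases release, and in skin they are known for driving keratinocyte growth and migration after wounding.

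The study treated healing ear punches of wild-type spiny mice (Acomys cahirinus, known for regrowing ear tissue) and of CD1 laboratory mice. Spiny mice were injected from day 12 to day 15 with an ERK inhibitor, an ErbB2 inhibitor, an FGFR1/2/3 inhibitor or DMSO. In mice, micro-beads carrying recombinant FGF2 and NRG1, or PBS, were placed in the wound at day 10. The labels used here state neither animal age nor dose nor how many animals went into a library.

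Each group was 1 library, so no difference below has a replicate check and none was tested. Intervals are 95% counting intervals, and a ratio compares 2 libraries rather than 2 conditions. The ERK inhibitor library held 631 cells, the ErbB2 inhibitor library 10632, the FGFR inhibitor library 4782 and the DMSO library 15363, while the bead libraries held 5104 cells with FGF2 and NRG1 and 3065 with PBS. Total UMIs ran between 7429819 with the ERK inhibitor and 70058081 with DMSO, and the median per cell between 3125 and 6915. Of all barcodes, 184 occurred in more than 1 library. Levels are given as CPM, the UMIs of a gene scaled to the UMI total of the cells named, as in the usual library-size unit. Spiny mouse UMIs are listed by mouse gene symbols, so no level was compared across species. Cell types are the authors' annotation, and 11 of 47 clusters had more markers of another type than of their own among their 10 leading genes. These are called by cluster number where a ratio is given.

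The EGF-like domain is what makes the 7 ligands a family, and its 6 cysteines bind the receptor-facing fold together. The mouse coding stretch between the first and the last of these cysteines is shown because it tells the ligands that differ between libraries below apart from one another. Capitals mark the 6 cysteine codons, and the sequences are spliced GENCODE vM21 transcripts on GRCm38, 5′ to 3′. None is shown for Hbegf.
Areg: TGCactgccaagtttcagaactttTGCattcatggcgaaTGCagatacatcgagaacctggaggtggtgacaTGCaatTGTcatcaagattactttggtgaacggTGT
Ereg: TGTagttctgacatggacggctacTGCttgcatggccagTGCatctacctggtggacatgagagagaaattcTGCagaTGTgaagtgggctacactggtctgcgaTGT
Btc: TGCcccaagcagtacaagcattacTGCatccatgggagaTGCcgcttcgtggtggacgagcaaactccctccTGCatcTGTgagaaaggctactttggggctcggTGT
Epgn: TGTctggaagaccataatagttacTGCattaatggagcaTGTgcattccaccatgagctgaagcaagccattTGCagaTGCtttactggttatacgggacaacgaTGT
Tgfa: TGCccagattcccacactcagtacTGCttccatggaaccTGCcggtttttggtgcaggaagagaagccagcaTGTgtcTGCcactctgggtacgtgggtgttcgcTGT
Nrg1: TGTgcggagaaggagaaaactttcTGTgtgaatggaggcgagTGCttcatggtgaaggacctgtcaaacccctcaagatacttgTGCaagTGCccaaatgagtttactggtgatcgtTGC
In each of Areg, Ereg, Btc, Epgn and Tgfa the stretch is 108 coding bases, 36 codons, with the cysteine codons in the same places. In Nrg1 it is 120 coding bases, or 40 codons. Every stretch is interrupted by an intron, between exons 3 and 4 of the transcript used, or exons 2 and 3 for Nrg1.

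Epgn, Ereg, Areg and Btc are neighbours on mouse chromosome 5, all within 375531 bases. The Areg stretch spans chr5:91143614-91144364 on the plus strand, the Ereg stretch chr5:91088496-91089111 on the plus strand, the Btc stretch chr5:91362421-91366197 on the minus strand and the Epgn stretch chr5:91031152-91032237 on the plus strand. The Tgfa stretch lies at chr6:86263200-86269960 on the plus strand and the Nrg1 stretch at chr8:31837698-31849398 on the minus strand. Of these neighbours Areg was highest in inner root sheath with DMSO and in both bead libraries, while Ereg and Epgn had no UMI in any spiny mouse library.

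Egfr, the receptor for most of these ligands, was present throughout the epidermis and its appendages. In the DMSO library it was highest in hair germ and outer bulge cells, with 189 UMIs or 99.1 CPM (85.5 to 114), and that interval did not overlap the next type's. Sebaceous gland followed with 576 UMIs or 68.4 CPM, then outer root sheath with 58.5 CPM, inner root sheath with 54.0 CPM and the 3 interfollicular types with 41.0 to 45.3 CPM. Hair germ led in the PBS bead library too, with 49 UMIs or 113.6 CPM, though that interval overlapped the next. In the lowest DMSO type, the cells annotated as circulating monocytes, 4 UMIs gave 12.02 CPM. These cells are cluster 7, which had 4 neutrophil markers and 0 macrophage and monocyte markers among its 10 leading genes. By share of cells, 162 of 923 hair germ cells had an Egfr UMI (17.6%, median depth 1704 UMIs), against 4 of 227 monocyte-labelled cells (1.76%, median depth 1192). At an equal depth of 1000 UMIs per cell the shares were 10.9% and 1.79%.

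Erbb2, the receptor without a ligand of its own, was also found in the epithelial types, but not only there. In the DMSO library outer root sheath had the highest level, 141 UMIs or 90.7 CPM (76.4 to 107), followed by the cells annotated as unknown with 87.1 CPM and suprabasal cells with 69.9 CPM, each overlapping its neighbour in the order. Suprabasal and basal interfollicular cells held 35.6% and 26.8% of all Erbb2 UMIs of that library. They also held 22393816 and 17170187 of its 70058081 UMIs over all genes, and Erbb2 had 62.8 CPM over the whole library. Outer root sheath led again with PBS beads, at 51 UMIs or 57.5 CPM. Cells annotated as resident macrophages were lowest in both. They had 29 UMIs or 21.6 CPM with DMSO and 1 UMI or 1.40 CPM with PBS beads. Not all immune cells were low with DMSO. Cluster 7 had 19 Erbb2 UMIs or 57.1 CPM, above sebaceous gland at 50.8 CPM, and dendritic cells had 15 among 243283 UMIs.

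**Figure D1:**
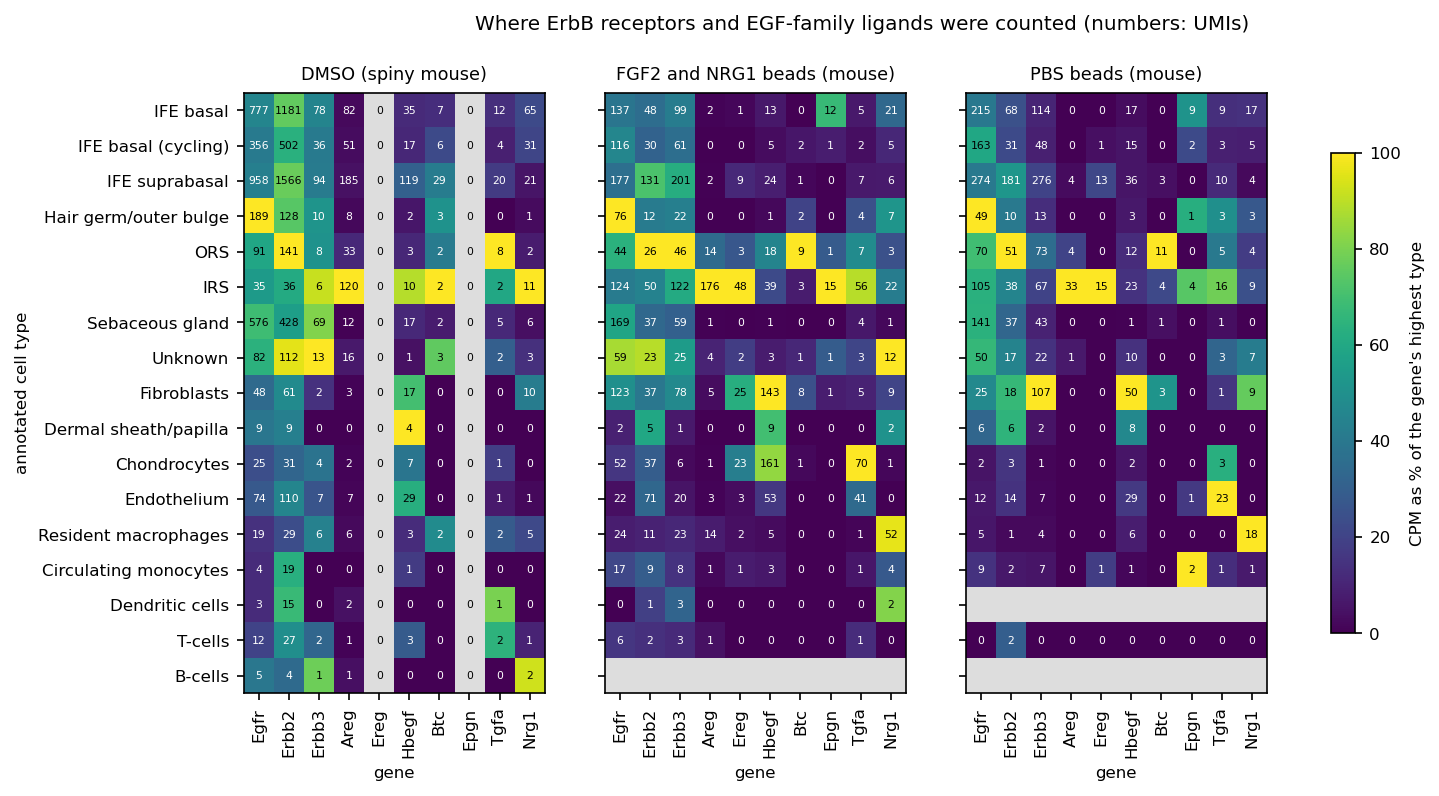
Levels of the 10 genes in annotated cell types of the DMSO, FGF2 and NRG1 bead and PBS bead libraries, coloured by CPM as a percent of that gene's highest type (grey: fewer than 30 cells, or no UMI in the library), with the UMI count written in each cell. Areg peaks in inner root sheath (IRS) in all 3 libraries, Egfr in hair germ, and Ereg and Epgn have no UMI with DMSO.

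Receptor counts in immune cells were set against those that free keratinocyte RNA could bring. Of DMSO keratinocyte UMIs, 8.86% belonged to basal and suprabasal markers, and so did 1.46% to 5.07% of UMIs in the classes outside the interfollicular epidermis. Carried over at the keratinocyte ratio, that RNA would bring 17.2 Egfr UMIs into the macrophage-labelled cluster 6, where 17 were counted. Among its 10 leading genes cluster 6 had 3 markers of the dendritic cell list, H2-Aa, Cd74 and H2-Ab1, and 1 macrophage marker, Lyz2. Cluster 6 had 23 Erbb2 UMIs against 27.6 at that ratio, and cluster 7, the monocyte-labelled cells, 4 Egfr UMIs against 7.25. Counts at or below the ratio are not read as expression. Others were above it, with 12 Egfr UMIs against 10.6 and 27 Erbb2 UMIs against 17.02 in T cells. Erbb2 also had 15 UMIs against 4.24 in dendritic cells and 19 against 11.7 in cluster 7. Whether such counts exceed the ratio by more than counting error was not tested, and 12 against 10.6 is close to it. Wound fibroblasts (cluster 32) stood above the ratio, with 33 Egfr UMIs against 13.5 and 49 Erbb2 UMIs against 21.7. So did endothelium outside cluster 29, with 57 against 32.2 and 86 against 51.8. In sebaceous gland the counts were 576 Egfr UMIs against 58.2.

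**Figure D2:**
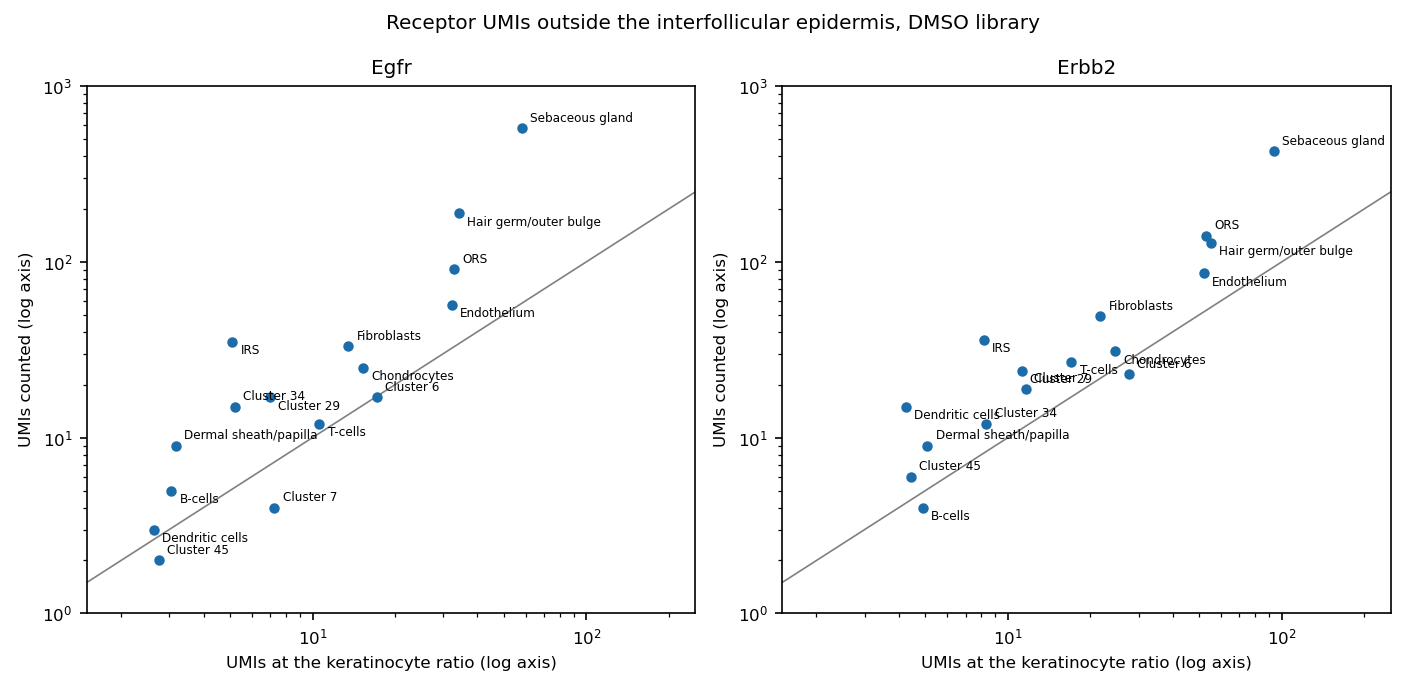
Egfr and Erbb2 UMIs counted in each class outside the interfollicular epidermis of the DMSO library (vertical, log axis) against the UMIs that keratinocyte RNA would bring at the keratinocyte ratio (horizontal, log axis), with the line of equality. Sebaceous gland, hair germ, root sheaths and fibroblasts lie above the line, and cluster 6 lies on or just below it.

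Erbb3, the neuregulin receptor, had the fewest UMIs of the receptors in the DMSO library. In the DMSO library it had 336 UMIs in all, with the unknown cells highest at 13 UMIs or 10.1 CPM and sebaceous gland at 69 UMIs or 8.19 CPM. Every one of the 17 types had an interval that overlapped its neighbour in the order. In mice, Erbb3 had 777 UMIs with FGF2 and NRG1 beads and 784 with PBS beads. Interfollicular keratinocytes without clusters 1, 21 and 44 held 342 and 427 of these, at 38.3 and 33.4 CPM, and inner root sheath had 46.8 and 45.9 CPM. Its level was higher in cluster 34, a cluster the authors call fibroblasts that had none of the listed fibroblast markers among its 10 leading genes. There Erbb3 had 73 UMIs in 66 cells with FGF2 and NRG1 beads, 274 CPM (214.9 to 345). With PBS beads it had 105 UMIs in 48 cells, 407 CPM (333 to 492). In the wound fibroblasts of cluster 32 it had 5 UMIs in 153 cells with FGF2 and NRG1 beads and 2 UMIs in 32 cells with PBS beads.

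The log2 ratio of Erbb3 in mouse cluster 34 was -0.56 (-1.02 to -0.12). In spiny mouse cluster 34, Erbb3 had 0 UMIs in 143 cells with the ErbB2 inhibitor and 3 UMIs in 59 cells with the FGFR inhibitor, against 1 UMI in 136 cells with DMSO.

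Areg, amphiregulin, an EGFR ligand, was a gene of the hair follicle sheath. In the DMSO library, inner root sheath had 120 UMIs in 91 cells, 185 CPM (153 to 221), and outer root sheath came next with 33 UMIs or 21.2 CPM. Those 91 cells were 0.592% of the library and held 22.7% of its Areg. An Areg UMI was found in 25 of them (27.5%, median depth 4745 UMIs), against 1 of 332 T cells (0.301%, median depth 1399.5), and at 1000 UMIs per cell in 8.99% of them. Mouse inner root sheath showed the same peak, with 67.5 CPM in the FGF2 and NRG1 bead library and 22.6 CPM in the PBS bead library. The genes whose levels ran most like Areg over the 17 DMSO types were Psors1c2, Krt75 and Krt7, with Pearson's r of 0.95, 0.94 and 0.93 on log2(CPM + 10). All 3 also peaked in inner root sheath, and the types share 1 library.

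Within the interfollicular epidermis the highest Areg level was in a small group of cells. Cluster 46, 133 cells labelled suprabasal, was led by Mmp9, Ctsl and Prss23, with 0 of the listed keratinocyte markers among its 10 leading genes. It had 28 Areg UMIs or 94.5 CPM with the ErbB2 inhibitor, 53 UMIs or 133.4 CPM with the FGFR inhibitor and 67 UMIs or 88.8 CPM with DMSO. All of its cells came from these 3 libraries. By Areg level no other interfollicular cluster of at least 20 cells in each of these libraries exceeded 28.5 CPM in any of them.

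Hbegf, heparin-binding EGF, which binds EGFR, was found both in late epidermal cells and in stroma. With DMSO, dermal sheath and papilla had 4 UMIs or 17.3 CPM, inner root sheath 10 UMIs or 15.4 CPM, fibroblasts 17 UMIs or 12.1 CPM and endothelium 29 UMIs or 10.9 CPM. These 4 intervals overlapped. Among epidermal clusters of that library it was highest in cluster 35, which is led by the cornified envelope genes Lor and Flg, with 20 UMIs or 16.0 CPM, and in cluster 27 with 33 UMIs or 11.98 CPM. Basal cells had 2.04 CPM. In mice, cells annotated as fibroblasts had the highest Hbegf level, at 143 UMIs or 66.1 CPM with FGF2 and NRG1 beads and 50 UMIs or 107 CPM with PBS beads. Most of the PBS bead UMIs came from cluster 34, where Hbegf had 38 UMIs in 48 cells.

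Btc, betacellulin, an EGFR ligand, had few UMIs and few cells. Of its 56 UMIs in the DMSO library, 29 were in suprabasal cells at 1.295 CPM, and the cornifying cluster 35 held 9 of them in 3 of its 129 cells. Inner root sheath had 36.2 CPM (9.87 to 92.8) from 4 UMIs in 22 cells with the ErbB2 inhibitor, and 3.08 CPM (0.373 to 11.1) from 2 UMIs in 91 cells with DMSO. In mice outer root sheath was highest, with 9 of 27 UMIs or 14.9 CPM with FGF2 and NRG1 beads and 11 of 22 UMIs or 12.4 CPM with PBS beads. Mouse suprabasal cells had 1 UMI and 3 UMIs in these libraries.

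Tgfa, transforming growth factor alpha, and the neuregulin gene Nrg1 were low in the spiny mouse. Tgfa had 60 UMIs over the whole DMSO library. Nrg1 had 159, and its highest level was in inner root sheath, with 11 UMIs or 16.96 CPM (8.47 to 30.3), which overlapped B cells at 2 UMIs and fibroblasts at 10 UMIs or 7.14 CPM. By count, 65 UMIs were in basal and 31 in cycling basal cells, at 3.79 and 3.57 CPM, and 21 in suprabasal cells at 0.938 CPM. In mice Tgfa was highest in endothelium with PBS beads, 23 UMIs or 13.997 CPM, and Nrg1 in macrophage-labelled cells, 18 UMIs or 25.2 CPM. The ERK inhibitor library also had Nrg1 in its macrophage-labelled cluster 6, with 8 UMIs in 8 of 33 cells or 19.5 CPM (8.41 to 38.4), against 5 UMIs in 5 of 410 cells or 4.10 CPM (1.33 to 9.56) with DMSO. The median depths of those cells were 11980 and 2376 UMIs.

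Ereg, epiregulin, and Epgn, epigen, both EGFR ligands, had 0 UMIs in all 4 spiny mouse libraries. So did 5345 of all genes, and whether the genes are silent there or were missed in counting cannot be told apart. With mouse beads Ereg had 117 UMIs with FGF2 and NRG1 and 30 with PBS, and Epgn had 31 and 19 in the same libraries. Inner root sheath was the highest type for Ereg in both, with 48 UMIs or 18.4 CPM and 15 UMIs or 10.3 CPM.

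Receptor and ligand were thus counted in the same cell types, in epithelium and also in stroma. With DMSO, inner root sheath had Egfr at 54.0 CPM and Erbb2 at 55.5 CPM beside its Areg, and suprabasal cells had Egfr at 42.8 CPM and Erbb2 at 69.9 CPM beside 44.4% of the library's Hbegf UMIs. Basal cells, which held 40.9% of the Nrg1 UMIs, had Erbb3 at 4.54 CPM. Over all genes, suprabasal and basal cells held 22393816 and 17170187 of the 70058081 UMIs of that library. In mouse wound fibroblasts (cluster 32) Egfr had 117 UMIs or 61.7 CPM with FGF2 and NRG1 beads, beside Hbegf at 56.4 CPM. With PBS beads Egfr had 21 UMIs or 100.6 CPM in 32 of these cells, beside Hbegf at 57.5 CPM. At the keratinocyte ratio, keratinocyte RNA would bring 3.50 and 0.851 of these Egfr UMIs.

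The inhibitors were compared with DMSO in interfollicular keratinocytes, without clusters 1, 21 and 44, whose leading genes failed a marker check. Clusters 1 and 44 had 1 marker of another type against 0 of their own, and cluster 21 had 2 against 0. Without these 3 clusters, 7.93% of interfollicular cells were left out with the ERK inhibitor, 25.0% with the ErbB2 inhibitor, 12.5% with the FGFR inhibitor and 14.7% with DMSO. The class held 267, 4229 and 2204 cells in the 3 inhibitor libraries and 7211 with DMSO, with median depths of 15668, 6944, 8764 and 4574 UMIs. A gene was called measured if the 2 libraries together gave it 30 UMIs, and higher or lower if its CPM differed by 1.5-fold or more, with 1 UMI added to each sum. These 3 comparisons share the DMSO library.

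Egfr and Erbb2 differed little between libraries. Egfr had 48.7 CPM with the ERK inhibitor, 41.4 with the ErbB2 inhibitor and 40.3 with the FGFR inhibitor, against 41.9 with DMSO. Erbb2 had 54.9, 62.7 and 58.4 CPM in those inhibitor libraries and 67.3 with DMSO, the largest difference being a log2 ratio of -0.29 (-0.48 to -0.11) with the ERK inhibitor. Neither gene passed 1.5-fold in any of the 3. Erbb3 had 6.25 CPM from 29 UMIs with the ERK inhibitor, 5.997 CPM from 213 UMIs with the ErbB2 inhibitor and 4.19 CPM from 93 UMIs with the FGFR inhibitor, against 4.17 CPM from 180 UMIs with DMSO. Its log2 ratios were 0.62 (-0.04 to 1.15), 0.52 (0.23 to 0.82) and 0.01 (-0.37 to 0.38) in that order of inhibitors.

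With the ErbB2 inhibitor, Hbegf and Btc were higher and Areg and Nrg1 lower. Of 8 measured members, 2 were higher, where 5.97% of all measured genes were, and 2 lower, where 13.7% were. Hbegf had 400 UMIs or 11.3 CPM with the ErbB2 inhibitor against 153 UMIs or 3.55 CPM with DMSO, a log2 ratio of 1.66 (1.39 to 1.94). A UMI was found in 312 of 4229 cells against 139 of 7211. Btc had 66 UMIs or 1.86 CPM against 33 UMIs or 0.765 CPM, a log2 ratio of 1.26 (0.66 to 1.93). Areg had 161 UMIs or 4.53 CPM against 296 UMIs or 6.86 CPM, a log2 ratio of -0.59 (-0.88 to -0.32). The lowest ratio was that of Nrg1, with 23 UMIs or 0.648 CPM against 101 UMIs or 2.34 CPM, -1.81 (-2.58 to -1.19) on the log2 scale. Nrg1 was lower in each of the 5 clusters that had at least 10 of its UMIs over both libraries.

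With the FGFR inhibitor, 3 ligands were higher. Of 8 measured members 3 were higher, where 4.66% of all measured genes were, and 0 lower, where 10.2% were. Btc had 92 UMIs or 4.15 CPM with the FGFR inhibitor against 33 UMIs or 0.765 CPM with DMSO, a log2 ratio of 2.41 (1.85 to 3.06), but its UMIs lay in 19 cells and 1 of them held 25. Hbegf had 182 UMIs or 8.20 CPM against 153 UMIs or 3.55 CPM, a log2 ratio of 1.21 (0.89 to 1.53). Areg had 306 UMIs or 13.8 CPM against 296 UMIs or 6.86 CPM, a log2 ratio of 1.01 (0.77 to 1.24), opposite in direction to the ErbB2 inhibitor. Nrg1 had 39 UMIs or 1.76 CPM against 101 UMIs or 2.34 CPM, a log2 ratio of -0.39 (-0.99 to 0.13).

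With the ERK inhibitor, the 267 keratinocytes gave few ligand UMIs. Of 8 measured members 1, Erbb3, was higher, where 11.4% of all measured genes were, and 3 lower, where 12.4% were. Hbegf had 9 UMIs or 1.94 CPM with the ERK inhibitor against 153 UMIs or 3.55 CPM with DMSO, a log2 ratio of -0.73 (-2.03 to 0.09), and its direction turned when cells were thinned to 1000 UMIs (0.29). Nrg1 had 4 UMIs or 0.862 CPM against 101 UMIs or 2.34 CPM, a log2 ratio of -1.14 (-3.35 to -0.04). Btc had 0 UMIs against 33, which is at least 1.18-fold lower by a floor of 3 UMIs, so its place among the lower genes rests on the UMI added. Areg had 23 UMIs or 4.95 CPM against 296 UMIs or 6.86 CPM, a log2 ratio of -0.41 (-1.15 to 0.14). Within clusters with at least 10 UMIs over both libraries, Hbegf and Areg had the opposite direction. Hbegf was at 0.20 and 0.93 in clusters 5 and 0, each on 2 ERK inhibitor UMIs, and Areg at 1.499 in cluster 0 on 3. Nrg1 kept its direction in its 1 such cluster, at -0.58.

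**Figure D3:**
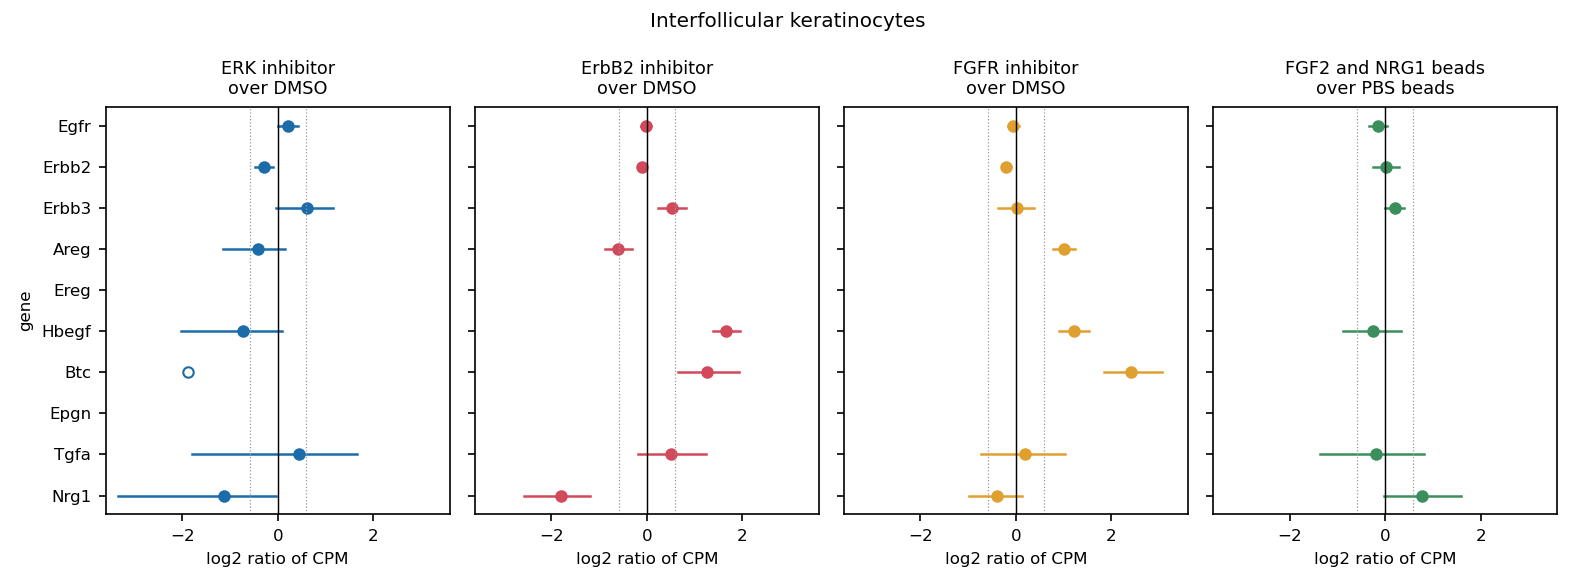
Log2 ratios of CPM for the measured members in interfollicular keratinocytes, 1 panel for each comparison, with 95% counting intervals as lines and the 1.5-fold bounds dotted (open circle: 0 UMIs in the inhibitor library, no interval drawn). Hbegf and Btc lie right of the bound with the ErbB2 and FGFR inhibitors, Areg lies on opposite sides of 0 in these panels, and Egfr and Erbb2 lie within the bounds in all 4.

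Hbegf and Btc both had high levels in the cornifying cluster 35, and the libraries differed in their differentiation markers. The 9 suprabasal markers summed to 108162 CPM with the ErbB2 inhibitor, 78716 CPM with the FGFR inhibitor and 69756 CPM with DMSO, and the 8 basal markers to 10229, 14848 and 18852 CPM. When each inhibitor's clusters were weighted to the DMSO mix, the log2 ratio of Hbegf was 1.07 with the ErbB2 inhibitor and 0.87 with the FGFR inhibitor, and that of Btc 0.22 and 1.15. With the ErbB2 inhibitor Btc was then within 1.5-fold, and so was Areg at -0.53.

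Within single clusters Hbegf was still higher. In cluster 5 it had 69 UMIs or 14.5 CPM with the ErbB2 inhibitor and 28 UMIs or 10.0 CPM with the FGFR inhibitor, against 16 UMIs or 3.67 CPM with DMSO. In cluster 27 it had 122 UMIs or 31.7 CPM and 54 UMIs or 26.7 CPM with those inhibitors, against 33 UMIs or 11.98 CPM. In cluster 35 it had 103 UMIs or 43.8 CPM and 36 UMIs or 21.1 CPM, against 20 UMIs or 16.0 CPM. The log2 ratios with the ErbB2 inhibitor were 1.91 (1.18 to 2.86), 1.37 (0.84 to 2.00) and 1.39 (0.75 to 2.22) in clusters 5, 27 and 35. With the FGFR inhibitor they were 1.41 (0.51 to 2.43), 1.14 (0.50 to 1.83) and 0.37 (-0.43 to 1.26). Of the clusters with at least 10 Hbegf UMIs, 10 of 12 were higher with the ErbB2 inhibitor and 9 of 10 with the FGFR inhibitor.

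Btc in the cornifying cluster 35 had 45 UMIs in 16 of 176 cells with the ErbB2 inhibitor, 19.1 CPM, and 85 UMIs in 12 of 107 cells with the FGFR inhibitor, 49.8 CPM, against 9 UMIs in 3 of 129 cells with DMSO, 7.21 CPM. Its log2 ratios there were 1.29 (0.36 to 2.63) and 2.65 (1.80 to 3.97). Because a few cells carried most of these UMIs, the counting intervals are narrower than the spread between cells.

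Areg was higher in 10 of 13 interfollicular clusters with at least 10 of its UMIs with the FGFR inhibitor, at log2 ratios of -1.96 to 2.29, and in 3 of 12 with the ErbB2 inhibitor, at -2.59 to 0.46. The highest was cluster 15 with the FGFR inhibitor, 23 UMIs or 13.5 CPM against 8 UMIs or 2.55 CPM with DMSO, and the lowest was cluster 22 with the ErbB2 inhibitor, 2 UMIs against 17. With the FGFR inhibitor it had 46 UMIs or 28.5 CPM in the basal cluster 16, against 34 UMIs or 7.66 CPM with DMSO, a log2 ratio of 1.89 (1.23 to 2.58). In the suprabasal cluster 9 it had 62 UMIs or 20.6 CPM against 39 UMIs or 7.52 CPM, a log2 ratio of 1.44 (0.85 to 2.07). With the ErbB2 inhibitor it had 9 UMIs or 2.34 CPM in cluster 27, against 29 UMIs or 10.53 CPM, a log2 ratio of -2.07 (-3.44 to -1.05). Cycling basal cells had 5 UMIs or 1.17 CPM against 49 UMIs or 6.02 CPM, a log2 ratio of -2.13 (-4.05 to -1.04), where 6.91% of all measured genes of that type were lower.

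Keratinocytes of the DMSO library held more RNA of hair follicle and sheath genes. The 10 hair follicle and sheath markers summed to 81.9 CPM in keratinocytes with the ERK inhibitor, 168 CPM with the ErbB2 inhibitor and 200.2 CPM with the FGFR inhibitor, against 777 CPM with DMSO. At the inner root sheath ratio of Areg to Krt71, Tchh and Krt25, that RNA would bring 0.200 of 23 Areg UMIs, 8.37 of 161 and 1.77 of 306 in those inhibitor libraries, and 49.2 of 296 with DMSO. Less these UMIs the log2 ratios of Areg were -0.16, -0.41 and 1.26. The Areg difference with the ErbB2 inhibitor was then within 1.5-fold, and that with the FGFR inhibitor was larger. Those 3 markers made up 9.496% of inner root sheath UMIs with DMSO but 0.563% in the ErbB2 inhibitor library, where 22 cells carry the label.

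**Figure D4:**
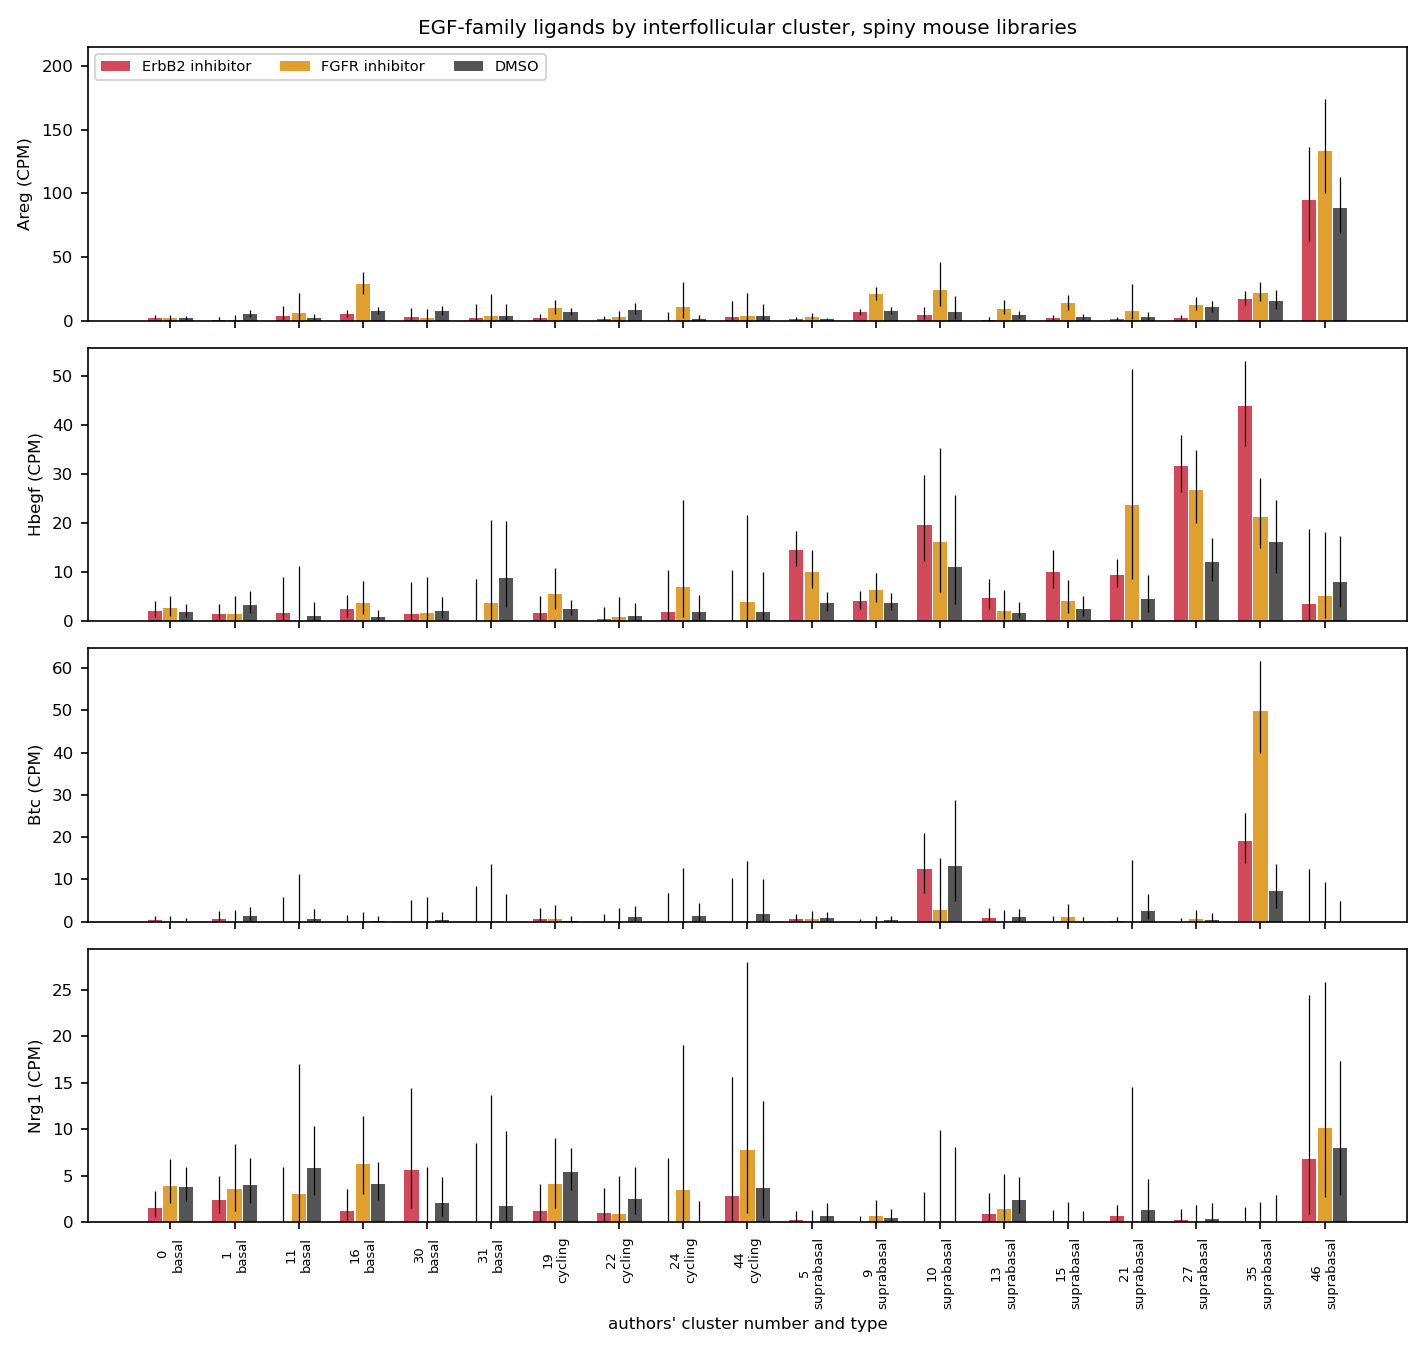
Areg, Hbegf, Btc and Nrg1 (CPM, with 95% Poisson intervals) in the 19 interfollicular clusters with at least 20 cells in each of the ErbB2 inhibitor, FGFR inhibitor and DMSO libraries. Areg stands highest in cluster 46, Hbegf in clusters 27 and 35 and Btc in clusters 10 and 35, while the Nrg1 intervals overlap widely.

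Outside the interfollicular class the receptors differed in places. With the ERK inhibitor Egfr was higher in sebaceous gland, with 98 UMIs in 66 cells or 125 CPM against 576 UMIs in 1404 cells or 68.4 CPM with DMSO, a log2 ratio of 0.88 (0.55 to 1.18), where 18.3% of all measured genes of that type were higher. Hair germ had 58 UMIs or 169.6 CPM against 189 UMIs or 99.1 CPM, a log2 ratio of 0.79 (0.32 to 1.21), where 22% of genes were higher. In endothelium outside cluster 29 Egfr had 0 UMIs in 33 cells with the ERK inhibitor against 57 UMIs in 734 cells with DMSO, at least 1.30-fold lower, where 18.6% of genes were lower.

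Erbb3 was higher with the ErbB2 inhibitor in 3 epithelial groups. In basal cluster 1, left out above and led by Stra6, Aldh3a1 and Fst, it had 62 UMIs or 21.2 CPM against 20 UMIs or 6.58 CPM with DMSO, a log2 ratio of 1.64 (0.94 to 2.49), where 9.3% of genes were higher. Cycling basal cells had 39 UMIs or 9.12 CPM against 32 UMIs or 3.93 CPM, a log2 ratio of 1.21 (0.50 to 1.94), where 8.36% were higher. Hair germ had 25 UMIs or 11.1 CPM against 10 UMIs or 5.25 CPM, a log2 ratio of 1.01 (-0.02 to 2.31), where 12.4% were higher.

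Stroma differed too. In wound fibroblasts (cluster 32), the ErbB2 inhibitor library had 32 Hbegf UMIs or 30.7 CPM against 16 UMIs or 14.2 CPM with DMSO, a log2 ratio of 1.07 (0.21 to 2.08), where 11.6% of genes were higher. Erbb2 in the same cells had 23 UMIs or 22.1 CPM against 49 UMIs or 43.4 CPM, a log2 ratio of -0.94 (-1.76 to -0.23), where 8.08% were lower. Keratinocyte markers made up 1.23% of UMIs of these fibroblasts with the ErbB2 inhibitor and 2.53% with DMSO, RNA that at the keratinocyte ratio would bring 6.77 of the 23 and 21.7 of the 49 Erbb2 UMIs. Their part in the ratio was not tested. In chondrocytes Erbb2 had 25 UMIs or 54.2 CPM with the ErbB2 inhibitor against 31 UMIs or 29.8 CPM, a log2 ratio of 0.88 (0.04 to 1.67), where 13.5% were higher. The basal and suprabasal keratinocyte markers in these chondrocytes summed to 2126 and 20066 CPM with the ErbB2 inhibitor and to 8163 and 22910.4 CPM with DMSO, and their part in the ratio was not tested.

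Egfr in cluster 34 had 39 UMIs or 157 CPM with the ErbB2 inhibitor and 15 UMIs or 143 CPM with the FGFR inhibitor, against 15 UMIs or 55.3 CPM with DMSO. Its log2 ratios were 1.45 (0.62 to 2.48), where 14.5% of genes were higher, and 1.37 (0.24 to 2.51), where 16.1% were. In endothelium outside cluster 29 Egfr had 5 UMIs or 10.4 CPM with the FGFR inhibitor against 57 UMIs or 31.4 CPM. The log2 ratio was -1.36 (-3.27 to -0.29), where 10.7% were lower. In the endothelium-labelled cluster 29 Egfr had 5 UMIs in 64 cells against 17 UMIs in 243 cells, out of 258355 and 842415 UMIs. Outside cluster 29, keratinocyte markers made up 0.292% of endothelial UMIs with the ERK inhibitor, 1.34% with the FGFR inhibitor and 3.75% with DMSO. At the keratinocyte ratio that RNA would bring 0.207 Egfr UMIs with the ERK inhibitor, 2.79 of the 5 with the FGFR inhibitor and 32.2 of the 57 with DMSO, and its part in either endothelial ratio was not tested.

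Other genes of the pathway were taken from 4 lists with 50 genes in the count table. In keratinocytes 11 of 47 measured were higher and 1 lower with the ERK inhibitor, where 11.4% and 12.4% of all measured genes were. With the ErbB2 inhibitor 4 of 49 were higher and 1 lower, where 5.97% and 13.7% of all were, and with the FGFR inhibitor 2 of 49 were higher and 1 lower, where 4.66% and 10.2% were. The sheddase list, the proteases and partners that free the ligands, had 4 of 8 measured genes higher with the ERK inhibitor, beside that 11.4%, and a median log2 ratio of 0.54, beside 0.01 over all measured genes. Adam15 was among them, with 277 UMIs against 1388 and a log2 ratio of 0.89 (0.70 to 1.08). Phlda1, a pleckstrin-domain protein, was lower with both the ERK inhibitor, 12 UMIs against 259 and -1.11 (-2.19 to -0.39), and the ErbB2 inhibitor, 116 UMIs against 259 and -0.87 (-1.21 to -0.56). Socs3, a feedback inhibitor, was higher with the ErbB2 inhibitor, 20 UMIs against 12 and 0.97 (-0.09 to 2.18), and with the FGFR inhibitor, 22 UMIs against 12 and 1.78 (0.76 to 2.98).

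Further genes named by the same rule were of several kinds. With the ERK inhibitor Nrg4, another neuregulin gene, had 11 UMIs against 22 with DMSO, a log2 ratio of 2.28 (1.02 to 3.32). Cbl, which tags receptors for degradation, had 10 UMIs against 44 there, a log2 ratio of 1.18 (-0.08 to 2.09). With the ErbB2 inhibitor Rhbdf2, a partner of the sheddase ADAM17, had 1763 UMIs against 1235, a log2 ratio of 0.79 (0.69 to 0.90). The adaptor gene Gab2 had 168 UMIs against 120 in that comparison, a log2 ratio of 0.76 (0.42 to 1.12). With the FGFR inhibitor Nrg4 had 24 UMIs against 22, a log2 ratio of 1.08 (0.19 to 1.99), and Cblb, a relative of Cbl, had 40 against 129, a log2 ratio of -0.71 (-1.28 to -0.21). Of the other members of the family, Egf and Nrg2 stayed within 1.5-fold in all 4 comparisons, and Erbb4 and Nrg3 were not analysed here.

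Mouse beads with FGF2 and NRG1 were set against PBS beads. In interfollicular keratinocytes, 961 cells with FGF2 and NRG1 beads against 1045 with PBS beads, 1 of 6 measured members was higher, where 4.26% of all measured genes were, and 0 were lower, where 3.9% were. Egfr had 44.2 CPM against 48.8 CPM, Erbb2 21.4 against 21.1 CPM and Erbb3 38.3 against 33.4 CPM. Nrg1 itself had 31 UMIs or 3.47 CPM against 26 UMIs or 2.03 CPM, a log2 ratio of 0.76 (-0.03 to 1.58). None of 49 measured pathway genes passed 1.5-fold in either direction.

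The ligands differed outside the epidermis, first in chondrocytes, the cells of ear cartilage. Hbegf had 161 UMIs in 248 chondrocytes with FGF2 and NRG1 beads, 55.3 CPM, against 2 UMIs in 36 chondrocytes with PBS beads, 5.88 CPM. The log2 ratio was 2.66 (1.36 to 6.29), where 13.8% of measured genes of that type were higher. A UMI was found in 67 of 248 cells against 2 of 36. One cell held 33 of the UMIs, and without it the log2 ratio was 2.34. Tgfa had 70 UMIs or 24.0 CPM against 3 UMIs or 8.82 CPM, a log2 ratio of 1.05 (-0.16 to 3.76), and Egfr 52 UMIs or 17.9 CPM against 2 UMIs or 5.88 CPM, a log2 ratio of 1.05 (-0.32 to 4.69). Ereg had 23 UMIs against 0 in the same cells.

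The chondrocytes of these libraries also differed in composition. Chondrocyte markers summed to 11655 CPM with FGF2 and NRG1 beads against 4713 CPM with PBS beads, fibroblast markers to 5213 against 8342 CPM and basal keratinocyte markers to 1068 against 6517 CPM. Median depths were 10904 and 6289 UMIs. Their part in the Hbegf result was not tested.

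Inner root sheath was the other place. Areg had 176 UMIs in 211 inner root sheath cells with FGF2 and NRG1 beads, 67.5 CPM, against 33 UMIs in 86 cells with PBS beads, 22.6 CPM, a log2 ratio of 1.54 (1.04 to 2.16), where 5.99% of measured genes were higher. These UMIs sat in 28 cells, 13.3% (9.002 to 18.6) of the sheath cells with FGF2 and NRG1 beads, and in 5 cells, 5.81% (1.91 to 13.0), with PBS beads. At 1000 UMIs per cell the shares were 2.86% and 2.33%, which does not separate the libraries. Tgfa had 56 UMIs or 21.5 CPM against 16 UMIs or 10.95 CPM, a log2 ratio of 0.91 (0.15 to 1.87). Its UMIs lay in 16 of 211 cells against 5 of 86, and 1 cell held 12 and 6 of them. At 1000 UMIs per cell the Tgfa shares were 0.952% and 2.33%, from 2 cells in each library. Ereg had 48 UMIs or 18.4 CPM against 15 UMIs or 10.3 CPM, a log2 ratio of 0.78 (-0.02 to 1.78). Egfr was lower there, with 124 UMIs or 47.5 CPM against 105 UMIs or 71.9 CPM, a log2 ratio of -0.60 (-0.98 to -0.21), where 8.8% of genes were lower.

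In the fibroblast-labelled clusters, where mouse Hbegf levels were highest, it stayed within 1.5-fold. In cluster 32 it had 107 UMIs or 56.4 CPM with FGF2 and NRG1 beads against 12 UMIs or 57.5 CPM with PBS beads, a log2 ratio of -0.13 (-0.89 to 0.97), and in cluster 34 it had 36 UMIs or 135 CPM against 38 UMIs or 147 CPM, -0.12 (-0.82 to 0.57). Tgfa was lower in endothelium outside cluster 29, with 26 UMIs or 8.15 CPM against 18 UMIs or 16.1 CPM, a log2 ratio of -1.002 (-1.90 to -0.03), where 9.99% of genes were lower. Cluster 29, endothelium-labelled cells, failed the marker check with 1 hair follicle and sheath marker against 0 of its own. Hbegf was lower there, with 18 UMIs or 10.49 CPM against 14 UMIs or 26.8 CPM, a log2 ratio of -1.37 (-2.44 to -0.23), where 13.4% were lower. Nrg1 in cluster 6 had 52 UMIs or 19.5 CPM against 18 UMIs or 25.3 CPM, a log2 ratio of -0.43 (-1.17 to 0.49).

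**Figure D5:**
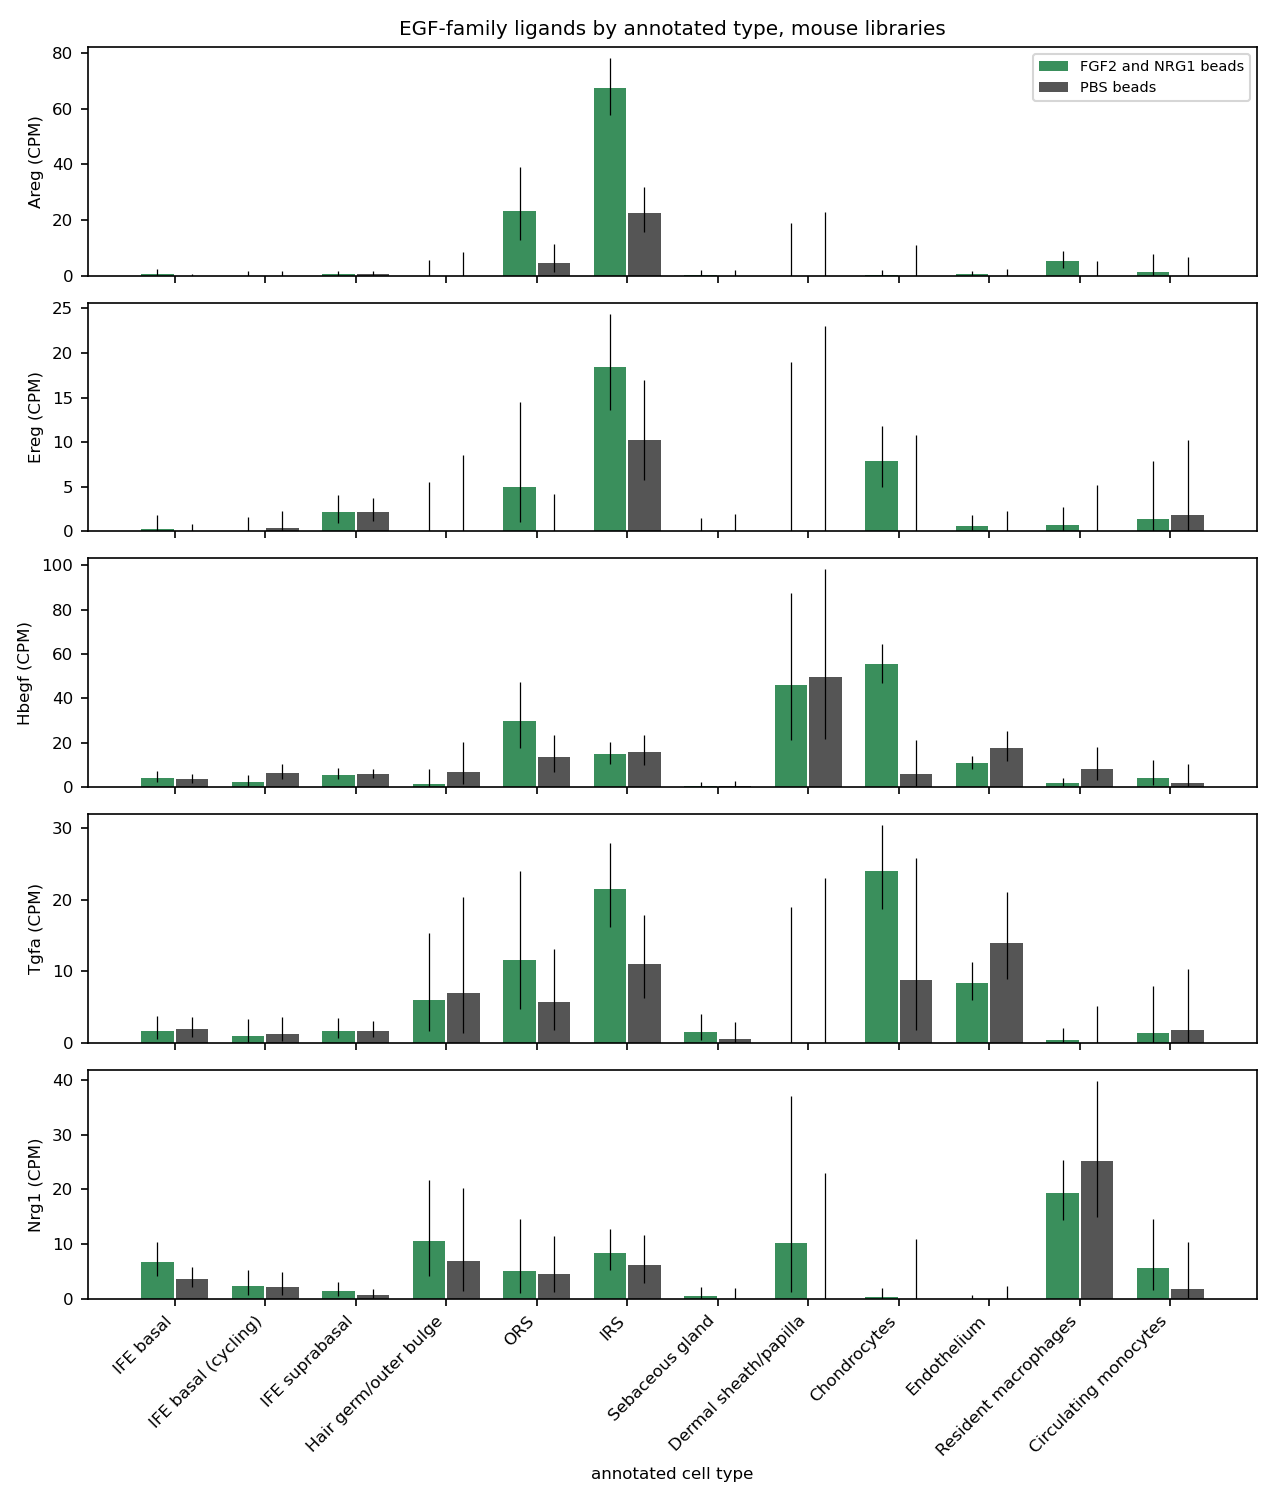
Areg, Ereg, Hbegf, Tgfa and Nrg1 (CPM, with 95% Poisson intervals) in some of the annotated types of the FGF2 and NRG1 bead and PBS bead libraries. Fibroblasts are not drawn. Their clusters 32 and 34 had Hbegf at 56.4 and 135 CPM with FGF2 and NRG1 beads, and at 57.5 and 147 CPM with PBS beads. Hbegf stands at 55.3 against 5.88 CPM in chondrocytes and Areg at 67.5 against 22.6 CPM in inner root sheath, while interfollicular types show low bars in both libraries.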

How the data were processed

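The authors deposited 1 table of UMI counts per gene and cell, made with Cell Ranger 6.1.1 per the submitters' processing notes, and a table of cell labels with cell type, cluster and the percent of mitochondrial UMIs, as deposited. The reference used for the spiny mouse reads is not given in the sources used here. No cell had fewer than 501 genes, all deposited cells were kept, and no doublet caller was run.

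Counts were summed over the cells of a type, cluster or class in each library. CPM has an exact Poisson interval, a share an exact Clopper-Pearson interval and a ratio an exact conditional binomial interval, all at 95% and covering counting error only. UMIs that sit in few cells make them too narrow. Shares were also taken after thinning each cell to 1000 UMIs and leaving out shallower cells. Classes needed 30 cells in each library. With 1 library per group no test was run.

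The members, marker lists and pathway lists were chosen with earlier results of these data known. Pathway genes are named by rule, up to 3 higher and 3 lower for each inhibitor, and likeness over types used genes with at least 100 UMIs. Clusters and genes outside these rules, such as clusters 34 and 46, were singled out after their values were seen. Some marker genes, and the sums that need them, are not reported here. The ratio code was tested on simulated data. Python 3.11.15, numpy 2.4.6, scipy 1.17.1, pandas 2.3.3 and matplotlib 3.10.9 were used.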

Additional observations from a re-analysis of the deposited data

Results flagged for a closer look

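Some results had ratios of opposite sign in different cell types, with counting intervals that left out 0 on both sides. None of these differences was tested, since each library stands alone.

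Egfr with the ERK inhibitor was higher in sebaceous gland and at 0 UMIs in endothelium outside cluster 29. The difference between the fitted log2 ratios was 2.87, which depends on the UMI added. Erbb2 with the ErbB2 inhibitor was higher in chondrocytes and lower in wound fibroblasts, a difference of 1.82 on the log2 scale. Egfr with the FGFR inhibitor was higher in cluster 34 and lower in endothelium outside cluster 29, a difference of 2.73. Hbegf with FGF2 and NRG1 beads was higher in chondrocytes and lower in cluster 29, a difference of 4.03. Tgfa with those beads was higher in inner root sheath and lower in endothelium, a difference of 1.91.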

How the results depend on the processing

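No paired analysis was possible because each group is 1 library, and for the same reason no replicate could be left out. In keratinocytes, a 2-fold bound left 0 members higher with the ERK inhibitor, 1 lower with the ErbB2 inhibitor and 0 higher with FGF2 and NRG1 beads, and left 2 pathway genes higher with the ERK inhibitor, 0 higher and 0 lower with the ErbB2 inhibitor and 0 lower with the FGFR inhibitor. Asking also that the interval leave out 0 gave 0 members higher and 1 lower with the ERK inhibitor, and 0 higher with the beads. Thinning to 1000 UMIs gave 1 member lower with the ERK inhibitor and 1 with the ErbB2 inhibitor, 0 higher with the beads, and pathway counts of 5 lower with the ERK inhibitor, 0 lower with the ErbB2 and FGFR inhibitors, and 2 higher and 4 lower with the beads. Median-of-ratios scaling gave 4 members higher and 1 lower, and 7 pathway genes higher, with the ErbB2 inhibitor, and 2 pathway genes lower with the ERK inhibitor. Weighting clusters to the DMSO mix left 1 member higher and 1 lower with the ErbB2 inhibitor and 0 pathway genes lower with the FGFR inhibitor. With no minimum of UMIs the beads had 2 members and 1 pathway gene higher. Hbegf with the ERK inhibitor turned to 0.29 on the log2 scale when thinned, and the cause was not tested.

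Of 265 recomputed values for 37 log2 ratios, 246 moved by less than their counting interval. Removing inner root sheath RNA from Areg and the top cell from Hbegf in chondrocytes were alternatives chosen after seeing the data. The weighted mix with the ERK inhibitor covers 71.1% of DMSO keratinocyte UMIs. The ERK inhibitor library has the fewest cells, and its ligands had 0 to 23 keratinocyte UMIs.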

Other observations

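Levels over the 17 DMSO types, on log2(CPM + 10), ran alongside other genes besides those of Areg. These are descriptions over types that share 1 library. For Hbegf the closest of 10427 genes were Nectin3, with Pearson's r of 0.92, and Cnn3, with 0.87. For Erbb2 the closest was Celsr2, with 0.88, which also peaked in outer root sheath. For Egfr it was Ptprf, with 0.82, and Pawr, with 0.81, the second of which peaked in hair germ as Egfr did.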
